A study of Mus musculus with 2 samples.

Results

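Of the 2462 cell barcodes in 2 single-cell libraries of mouse pancreatic cells, 435 held more than 20% of their unique molecular identifiers (UMIs, 1 per captured RNA molecule) in mitochondrially encoded genes and under 20% in hemoglobin genes. The barcodes were chosen by these 2 measured shares, so the mitochondrial share is given as a description and not as a finding. They were 336 of 1717 barcodes in the EYFP positive library (19.6%, exact Clopper-Pearson 95% interval 17.7 to 21.5) and 99 of 745 in the EYFP negative library (13.3%, 10.9 to 15.9). The mice were R26[CA]30EYFP on a C57Bl/6J background, with a reporter allele at the Rosa26 locus that holds a repeat of 30 CA units. Both groups carry this reporter, and in both the cells were taken after pancreatitis, although the treatment label reads None. Cells sorted as EYFP positive made 1 library and cells sorted as EYFP negative the other. Neither the age nor the number of the mice, nor the interval since pancreatitis, is stated in the labels. No reporter gene is among the counted features, and the counts therefore give no check of the sort. With 1 library per group no difference has a replicate, no p-value is given, and every interval below covers counting error only. No doublet caller was run.

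Mitochondria carry their own small genome, which encodes subunits of respiratory complexes I, III and IV and of the ATP synthase, while all other mitochondrial proteins come from nuclear genes. A cell whose outer membrane has broken can lose soluble cytoplasmic mRNA while RNA held inside organelles stays, and a high mitochondrial share is therefore widely used to set barcodes aside before clustering. The nucleus holds its own long noncoding RNAs, such as Malat1 and Xist, and unspliced transcripts. In the pancreas, acinar cells make digestive enzymes in very large amounts and their RNA is common in the fluid around dissociated cells. The genes named by the label, mt-Co1, mt-Co3, mt-Nd1 and mt-Cytb, each had at least 1 UMI in all 435 barcodes, which the rule made likely.

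Each set is compared below with the rest of its own library, meaning barcodes with at most 20% mitochondrial and under 20% hemoglobin UMIs and with no minimum of genes. The rest came to 1338 EYFP positive and 553 EYFP negative barcodes. Of the others, 43 EYFP positive and 92 EYFP negative barcodes had at least 20% hemoglobin UMIs with a mitochondrial share of at most 20%, and 1 EYFP negative barcode was past both limits. The libraries share 4 barcode sequences, and none of the 4 is in the high-mitochondrial set. No barcode in the files has fewer than 500 UMIs, so a barcode with few nuclear-encoded UMIs can be present only if other RNA fills it. Near the limit, 32 EYFP positive barcodes had over 20 to 25% mitochondrial UMIs and 72 had over 15 to 20%. The same ranges held 9 and 2 barcodes of the EYFP negative library.

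The high-mitochondrial barcodes held 78.6% of all mitochondrial UMIs of the EYFP positive library and 21.8% of those of the EYFP negative library. Their mitochondrial UMIs came to a median of 1333 per barcode among EYFP positive barcodes, against 45 in the rest. Among EYFP negative barcodes the median was 492, against 381 in the rest. The median mitochondrial share was near the same, 73.6% and 73.4%. The nuclear-encoded UMIs, those outside the mitochondrial and hemoglobin genes, had a median of 496 against 764 in the rest of the EYFP positive library and of 201 against 7511 in the rest of the EYFP negative library. The EYFP negative barcodes held little nuclear-encoded RNA. The EYFP positive ones held a large count of mitochondrial RNA, beside a rest that was itself shallow. Both counts enter the share used by the rule, so this describes the barcodes chosen and is not a finding. Under 200 genes were detected in 237 of the 336 and 57 of the 99 barcodes, with medians of 98.5 and 151 genes.

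Counts per barcode are given next for single groups of nuclear-encoded RNA. In the EYFP negative library the median count for the 85 cytosolic ribosomal protein genes was 10 in high-mitochondrial barcodes and 2797 in the rest. For Malat1, a long noncoding RNA of nuclear speckles, it was 22 against 240. Gm42418, a noncoding gene model whose counts can include ribosomal RNA, had a median of 8 against 20. So the Malat1 and Gm42418 counts were a fraction of those of the rest, and the ribosomal protein count was the lowest relative to the rest. Among EYFP positive barcodes the medians were 20 against 78 for ribosomal protein genes and 1 against 8 for Malat1. Gm42418 was close to the rest, with 233.5 against 261. The acinar secretory genes, 37 genes for digestive enzymes and other secreted acinar proteins, had a median of 56.5 UMIs against 22, and Lars2 had 25 against 15. All other nuclear-encoded genes together came to only 46.5 UMIs per EYFP positive barcode, against 234 in the rest.

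**Figure D1:**
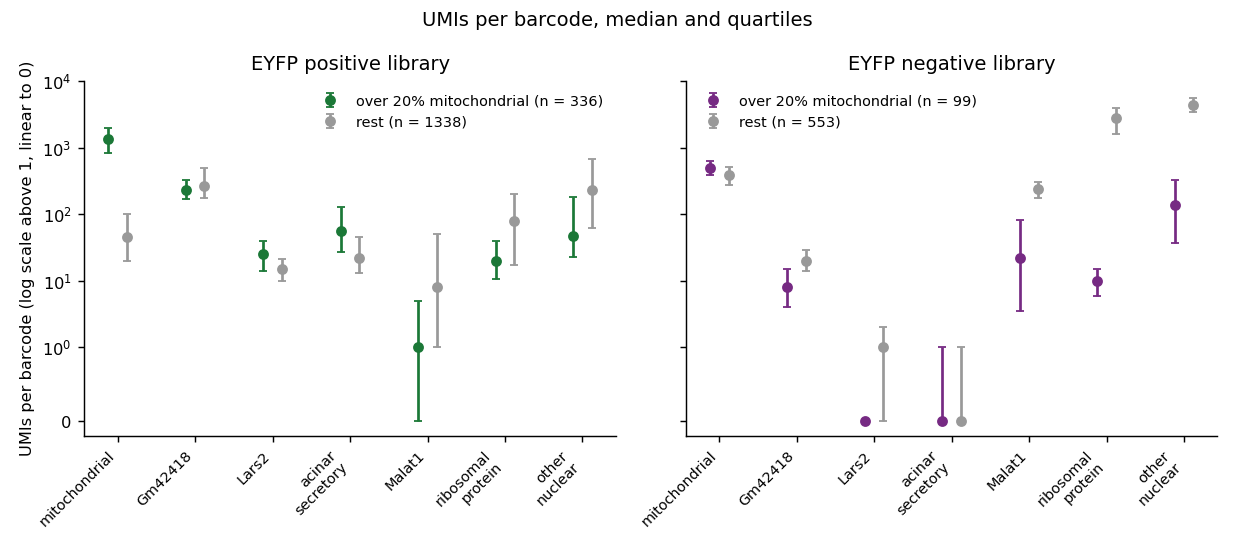
UMIs per barcode (vertical axis, logarithmic above 1 and linear down to 0) for 7 groups of RNA, in barcodes over 20% mitochondrial (coloured) and in the rest (grey) of each library. Points are medians over barcodes and bars the quartiles. The EYFP negative set lies far below its rest for ribosomal protein genes (median 10 against 2797), and the EYFP positive set lies above its rest for acinar secretory genes (56.5 against 22).

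Nuclear-encoded RNA was then compared as a share of all nuclear-encoded UMIs, summed over the barcodes of a set, so that the mitochondrial share used by the rule does not enter. A fold is the share in high-mitochondrial barcodes over the share in the rest, with an exact conditional binomial 95% interval. A gene was called when it differed by at least 2-fold with at least 10 UMIs in the 2 sums together. Of 12012 EYFP positive genes with that many UMIs, 4.49% were called higher and 39.4% lower. Of 11267 EYFP negative genes, 30.1% were called higher and 48% lower. These shares are the background for each count of list members, and the EYFP negative ones stand beside sums of 32421 nuclear-encoded UMIs in the 99 barcodes and 4526887 in the rest. With sums so unequal, an EYFP negative gene with few UMIs was called higher on 1 UMI in the set and lower on none. The EYFP negative shares are therefore a coarse background. For 741 genes at least 5 UMIs were expected in each sum. Of these 19% were at least 2-fold higher and 38.3% lower, with the interval beyond 1. The ribosomal-RNA-like and acinar genes fill much of the EYFP positive total, so leaving both out of the totals (the reduced total) multiplies every EYFP positive fold by 1.76 and moves the median gene from -0.53 to 0.29 on the log2 scale. An EYFP positive fold only moderately below 1 therefore crosses 1 with the reduced total, and where it does so the second value is given. The same step multiplies EYFP negative folds by 1.04.

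Nuclear noncoding RNAs had higher shares in the EYFP negative set than in its rest, while their direction in the EYFP positive set depended on the total. Malat1 (chr19:5795690-5802672, minus strand, GRCm38) made up 16.0% of the nuclear-encoded UMIs of EYFP negative high-mitochondrial barcodes and 3.15% of the rest, 5.08-fold more (4.94 to 5.22). In the EYFP positive library it made up 2.93% against 3.84%, a fold of 0.762 (0.745 to 0.780) that turned to 1.34 with the reduced total. Xist, the noncoding RNA that coats the inactive X chromosome, was 6.02-fold higher (5.23 to 6.90) in the EYFP negative set and 0.965-fold (0.855 to 1.08, or 1.70 with the reduced total) in the EYFP positive set. Kcnq1ot1, an imprinted antisense RNA kept in the nucleus, followed with 5.002-fold (3.64 to 6.71) and 0.495-fold (0.354 to 0.674). Neat1, the RNA scaffold of paraspeckles, was higher in both, at 2.77-fold (1.60 to 4.46) on 17 UMIs and 1.30-fold (1.05 to 1.60). Of the 8 tested members of the list of nuclear-retained noncoding RNAs, 6 were called higher and 2 lower in the EYFP negative library, and 0 higher and 3 lower in the EYFP positive library. Of all genes, 30.1% were called higher and 48% lower in the EYFP negative library, and 4.49% and 39.4% in the EYFP positive library. The EYFP positive count of 3 lies near that background. The list's summed fold was 5.10 and 0.769 (1.36 with the reduced total). Its median log2 fold was 2.34 and -0.28, beside 1.16 and -0.53 for all genes tested. In the EYFP negative set 6659 nuclear-encoded genes had a UMI, while 11267 were tested. The pseudocount of 0.5 UMI raises the log2 fold of a gene without one, so the 1.16 is no reference level.

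**Figure D2:**
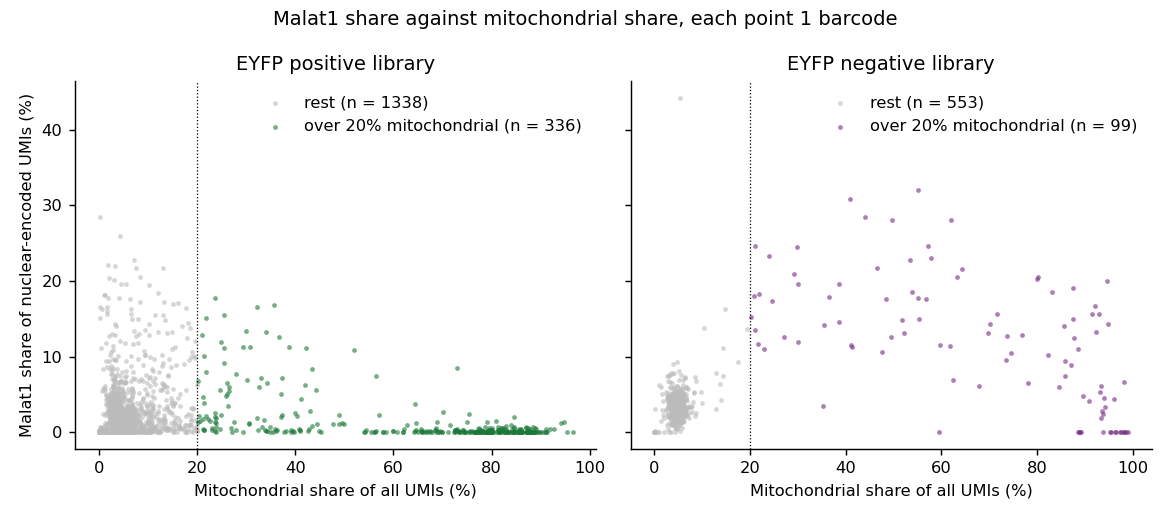
Malat1 share of nuclear-encoded UMIs (vertical axis, %) against the mitochondrial share of all UMIs (horizontal axis, %), with 1 point per barcode. The dotted line is the 20% limit, coloured points are the 336 and 99 barcodes past it and grey points the rest. Of the 183 EYFP positive barcodes over 70% mitochondrial, 113 lie at 0, while the EYFP negative barcodes lie mostly above the 3.15% of their rest.

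In the EYFP positive library the Malat1 share was lower the higher the mitochondrial share. Barcodes over 20 to 30% mitochondrial held 5.05% Malat1 and those over 30 to 50% held 4.42%, both above the 3.84% of the rest. As a median over barcodes these were 2.19% and 1.11% against 1.205%, so the second range was no longer above. Those over 50 to 70% held 1.18% and those over 70% only 0.369%. These ranges held 49, 57, 47 and 183 barcodes, with median nuclear-encoded UMIs of 581, 1013, 649 and 393. No Malat1 UMI was found in 143 of the 336 barcodes, and 113 of these 143 were over 70% mitochondrial. They had a median of 425 nuclear-encoded and 1588 mitochondrial UMIs, against 556 and 1022 in the 193 barcodes with Malat1. Among EYFP negative barcodes the shares were 17.7%, 16.0%, 17.3% and 9.36% over the same ranges, with 13, 15, 19 and 52 barcodes. Here 16 of 99 barcodes had no Malat1 UMI, and these had a median of 58 nuclear-encoded UMIs and of 95.8% mitochondrial UMIs. Over barcodes, the rank correlation of Malat1 share with mitochondrial share was -0.55 for the 336 and -0.63 for the 99, a description in which both axes share the barcode's total.

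A few genes filled most of the nuclear-encoded RNA of EYFP positive barcodes. Gm42418 (chr17:39846958-39848788) was found in all 336 and made up 36.4% of their nuclear-encoded UMIs, against 15.7% in the rest. With Lars2, Gm26917 and AY036118 it forms the list of genes whose counts can include ribosomal RNA, which came to 41.1% against 16.6%, 2.47-fold (2.46 to 2.49). Across the mitochondrial ranges this list went from 16.9% to 31.6%, 59.0% and 65.2%. The 3 barcodes with the most nuclear-encoded UMIs, 45864 together, all lay in the lowest range, and leaving them out, a choice made after the data were seen, turned its 16.9% to 31.3%. Lars2, the gene of the mitochondrial leucyl-tRNA synthetase (chr9:123366927-123462666), was the gene with the clearest excess by the naming rule. It made up 4.48% against 0.850%, 5.27-fold (5.15 to 5.38), with at least 1 UMI in all 336 barcodes, and went from 1.17% to 8.34% over the mitochondrial ranges. Lars2 had 12 UMIs in the EYFP negative set, 0.0370% against 0.0167%. The list as a whole was 3.79% against 0.434% there, 8.75-fold (8.25 to 9.27), nearly all of it Gm42418 with 3.45%. Whether the Lars2 and Gm42418 counts come from these genes or from ribosomal RNA was not tested. Because the median Gm42418 count per EYFP positive barcode was no higher than in the rest, its share was larger beside a smaller total and not beside a larger count.

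Digestive enzyme RNA was the next largest part. Acinar secretory genes made up 14.99% of nuclear-encoded UMIs in the EYFP positive set and 5.91% in the rest, 2.54-fold (2.51 to 2.56), and 23 of 36 tested genes were called higher and 0 lower. Clps, the cofactor of pancreatic lipase, led with 5157 UMIs and 4.76-fold (4.61 to 4.92). The elastase Cela2a had 2844 UMIs and 2.57-fold (2.46 to 2.67). Ctrb1, chymotrypsinogen B, had 4863 UMIs but 1.90-fold (1.84 to 1.96). Clps was 13.1% of all acinar UMIs in the set and 6.98% in the rest, and Ctrb1 12.4% against 16.5%, so the mixture of acinar RNAs differed beyond counting error. Acinar UMIs were present in all 336 barcodes, and also in all 211 barcodes of the rest that carried T cell markers, with a median of 20 UMIs at a median depth of 1317 nuclear-encoded UMIs. The high-mitochondrial median of 56.5 UMIs at a depth of 496 is above that level, but it differed by class. It was 23.5 in the 6 high-mitochondrial barcodes with T cell markers, and 32 in ductal ones against 29 in ductal barcodes of the rest. In barcodes without a class it was 60 against 19, and in the 12 B cell marked ones 270 against 16. The source of the acinar RNA was not tested. Only 31 of 99 EYFP negative barcodes held any acinar UMI, and the list came to 0.552% against 0.225%. Of those 179 UMIs, 152 lay in barcodes over 70% mitochondrial. The ratio of 2.46 there went to 0.812 when only barcodes with at least 200 genes were used.

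**Figure D3:**
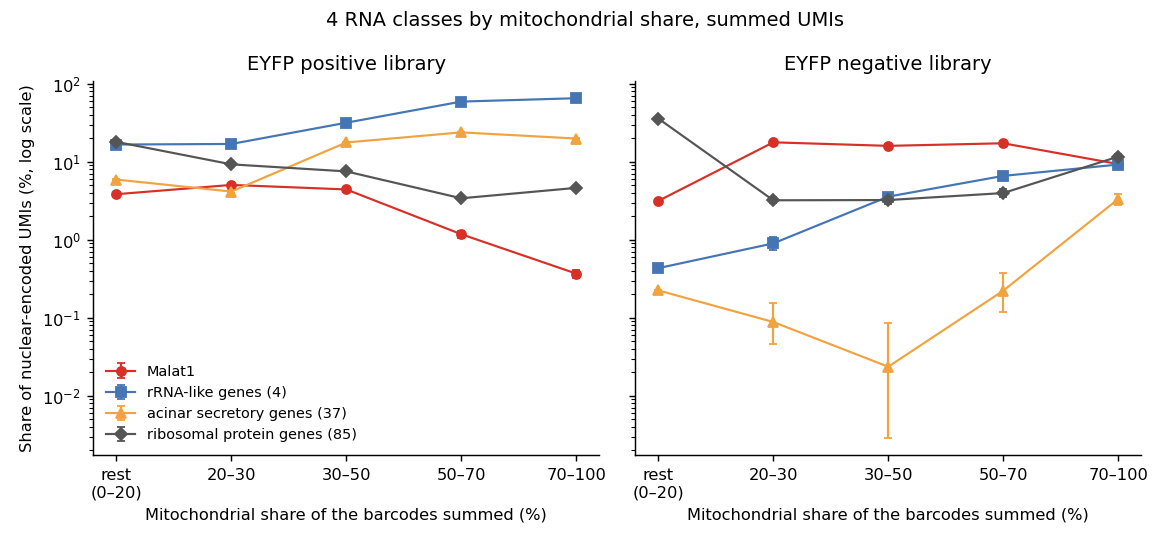
Share of nuclear-encoded UMIs (vertical axis, %, log scale) in Malat1, in the 4 genes whose counts can include ribosomal RNA (rRNA-like), in 37 acinar secretory genes and in 85 ribosomal protein genes, for the rest and for 4 ranges of mitochondrial share (horizontal axis). Points are sums over barcodes and bars exact 95% intervals. In the EYFP positive library Malat1 goes from 5.05% to 0.369% as the rRNA-like genes go from 16.9% to 65.2%.

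Abundant cytoplasmic mRNAs had lower shares in both sets, and the folds were farther from 1 in the EYFP negative one. Cytosolic ribosomal protein genes were 4.54% of nuclear-encoded UMIs against 35.7% in the EYFP negative rest, a fold of 0.127 (0.121 to 0.134), and 81 of 82 tested genes were called lower. The EYFP positive shares were 6.61% against 18.0%, 0.368-fold (0.362 to 0.373), with 74 of 82 called lower, and 0.649-fold with the reduced total. The list of abundant cytosolic mRNAs gave 0.149 (0.132 to 0.168), with 14 of 14 called lower, and 0.375 (0.361 to 0.388), with 10 of 14. Its members include Tpt1, at 0.0799-fold in the EYFP negative and 0.466-fold in the EYFP positive set, and beta-actin (Actb) at 0.195-fold and 0.267-fold. Tmsb10, a thymosin that binds actin monomers, had 14 UMIs in the EYFP negative set against 29002 in the rest and was the gene with the clearest deficit there. The elongation factor Eef1a1 was 0.141-fold (0.0987 to 0.195) in the EYFP negative library and 0.578-fold in the EYFP positive library, 1.02-fold with the reduced total. Over the mitochondrial ranges the EYFP negative ribosomal protein share was 3.21%, 3.23% and 3.97% in the ranges up to 70% and 11.6% above 70%. Depth moves with this: the median nuclear-encoded count there was 72 above 70% and 1034 in the lowest range, and its part in the share was not tested.

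Transcript length separated the genes of the EYFP negative set. The 741 genes with at least 5 UMIs expected in the sum of the 99 barcodes, given their level in both sums together, had a median genomic span of 11199 bases and a median exon length of 3290 bases in GENCODE M21. Of these, 19% were at least 2-fold higher with the interval above 1 and 38.3% at least 2-fold lower with the interval below 1. The 141 higher genes spanned a median of 42381 bases, with 10444 bases of exon. For the 284 that were lower the medians were 4969 and 1880 bases, and without the 80 ribosomal protein genes among them 6813 and 1918. The naming rule asks only for at least 30 UMIs in the 2 sums together. Its higher genes Il18rap, Brwd3 and Snrnp48 had under 5 UMIs expected, so they are not among the 141. Il18rap, a subunit of the interleukin-18 receptor, had 13 UMIs in 8 barcodes and 26.3-fold (13.3 to 48.0). Brwd3, a bromodomain protein, had 10 UMIs in 8 barcodes. Snrnp48, a protein of the minor spliceosome, had 28 UMIs in 19 barcodes and 8.44-fold (5.55 to 12.4). Lower ones included Atp5g2, an ATP synthase subunit, with 0 UMIs against 2287, at least 5.46-fold lower with the floor of 3 UMIs in the sum. Snrpg, Rac2, Crip1, Ptpn18 and Uqcrh had 1 or 2 UMIs each. In the EYFP positive library, where the same rule called 1.41% higher and 25.4% lower, the 89 higher genes spanned a median of 20287 bases, the 1608 lower genes 20546 and all 6320 genes 25650.

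Within the mitochondrial UMIs, the mixture of transcripts followed the library more than the mitochondrial share. The feature table holds 13 mitochondrial genes, all protein-coding. Complex IV transcripts made up 41.7% of mitochondrial UMIs in the EYFP positive and 48.1% in the EYFP negative set, complex I 26.4% and 20.7%, the single complex III gene mt-Cytb 11.8% and 9.93%, and the ATP synthase genes 20.03% and 21.3%. The gene behind the complex IV difference was mt-Co3 (chrM:8607-9390), with 13.6% (13.5 to 13.7) against 19.9% (19.6 to 20.3). Its share in the rest was 12.5% and 19.4%, and in T cell marked barcodes of the rest 12.4% and 19.6%, so the same gap stood between barcodes with low mitochondrial share. Of the complex I genes, mt-Nd3 lay on the same side as mt-Co3, at 0.796-fold (0.753 to 0.841) in the EYFP positive set against the EYFP negative one and 0.604-fold between the rests, and mt-Nd1 was 0.955-fold and 0.919-fold. The genes mt-Nd4l, mt-Nd4 and mt-Nd5 lay on the other side. The share of mt-Nd4l was 1.70% against 0.530%, a fold of 3.20 (2.87 to 3.58) between the sets and of 3.01 (2.81 to 3.22) between the rests. For mt-Nd4 the folds were 1.50 and 1.52, and for mt-Nd5 2.51 and 2.15. The adjoining mt-Nd4l and mt-Nd4 overlap, as do mt-Atp8 and mt-Atp6, and reads in an overlap could be counted for either.

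Per kilobase of gene the same genes led and the same genes came last in both sets, while the genes between them differed in order. Among those, mt-Nd4 stood above mt-Nd3 in the EYFP positive set and below it in the EYFP negative set. In EYFP positive barcodes mt-Atp6 came first with 28.2% of mitochondrial UMIs per kilobase, then mt-Co2 with 21.4, mt-Co3 with 17.4, mt-Cytb with 10.3 and mt-Co1 with 8.72. Among EYFP negative barcodes mt-Atp6 had 30.7, mt-Co3 25.4, mt-Co2 18.9, mt-Co1 9.81 and mt-Cytb 8.68, so mt-Co2 and mt-Co3 stood in the reverse order, as did mt-Co1 and mt-Cytb. The lowest in both was mt-Nd6, the only gene on the minus strand of the annotation, with 0.219 and 0.160, followed by mt-Nd5 with 1.15 and 0.458. Against the rest of the same library most genes lay close to 1. The share of mt-Co1, the catalytic subunit of complex IV, was 0.839-fold (0.827 to 0.852) and 0.882-fold (0.862 to 0.901), lower in both libraries. The share of mt-Nd3 was higher in both, 1.49-fold (1.41 to 1.57) and 1.13-fold (1.06 to 1.197). The other 11 genes lay between 0.624 and 1.19 in the EYFP positive library and between 0.860 and 1.47 in the EYFP negative library, and mt-Nd6, with 568 and 53 UMIs, set one end of each range.

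**Figure D4:**
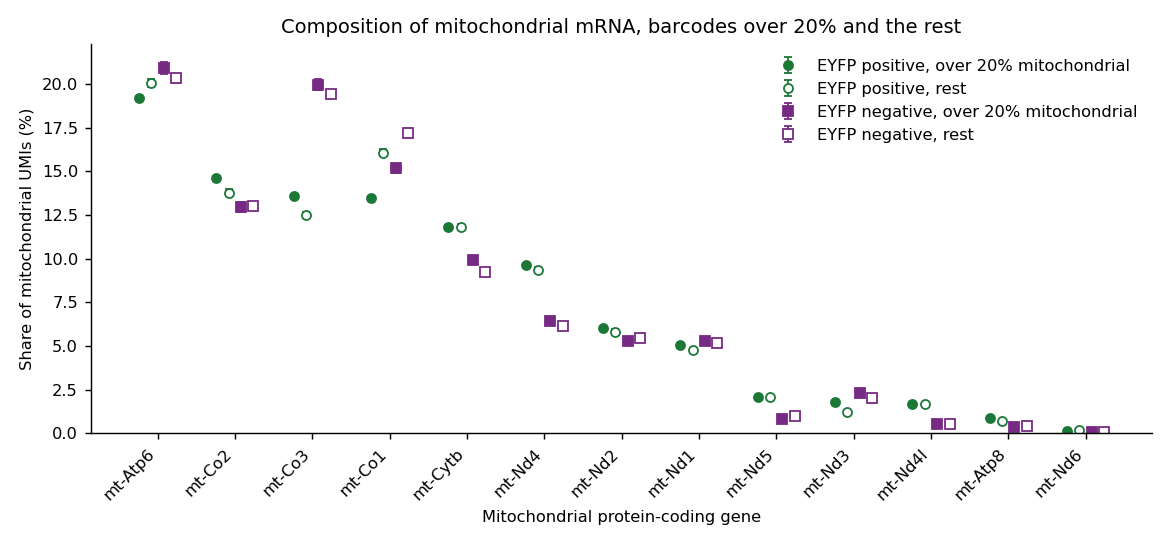
Share of mitochondrial UMIs (vertical axis, %) of each of the 13 mitochondrial genes, for barcodes over 20% mitochondrial (filled) and the rest (open) of the EYFP positive (green circles) and EYFP negative (purple squares) library. Bars are exact 95% intervals on summed UMIs. For mt-Co3 both purple points (19.9% and 19.4%) lie above both green ones (13.6% and 12.5%).

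One barcode stood apart in the EYFP negative set. It had the most UMIs, 7619, of which 98.2% were mitochondrial, and it gave 11.7% of the mitochondrial UMIs of all 99. Its mt-Co3 share was 17.1% and its mt-Nd4l share 1.04%, both between the values of the sets. Its acinar counts, with 18 Clps and 11 Ctrb1 UMIs, were a large part of the 30 and 24 in the set. Without this barcode mt-Co3 was 20.3% and mt-Nd4l 0.462%. In the EYFP positive set the barcode with the most UMIs, 32976, was 21.5% mitochondrial and gave 9.86% of the nuclear-encoded UMIs. It carried 254 UMIs of Clu and 137 of Spp1, 2 secreted proteins of duct-like epithelium.

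Nuclear-encoded subunits of the same respiratory complexes had lower shares in the EYFP negative set than in its rest. In the EYFP negative set the summed fold against the rest was 0.324 (0.239 to 0.428) for complex I, 0.193 (0.0962 to 0.345) for complex III, 0.262 (0.182 to 0.364) for complex IV and 0.247 (0.176 to 0.337) for the ATP synthase. All 11 tested complex IV genes and all 14 ATP synthase genes were called lower, with 21 of 36 for complex I and 7 of 9 for complex III. Of all EYFP negative genes 48% were called lower, and the complex I count lies nearest to that share. Cox4i1, a core nuclear-encoded subunit of complex IV, had 4 UMIs against 2887. The EYFP positive folds were 0.681, 0.704, 0.631 and 0.598 in the same order. The counts called lower were 3 of 36, 1 of 9, 0 of 11 and 3 of 14, beside 39.4% of all genes, with none called higher. With the reduced total these 4 folds became 1.202, 1.24, 1.11 and 1.05, so their direction in the EYFP positive library depends on the total. The 78 mitochondrial ribosomal protein genes summed to 0.542-fold (0.426 to 0.681) and 0.623-fold (0.572 to 0.677, 1.099 with the reduced total). Genes for mitochondrial transcription and RNA upkeep gave 15 and 74 UMIs and folds of 1.22 (0.683 to 2.02) and 0.772 (0.602 to 0.978, or 1.36 with the reduced total), and Tfam, which packages the mitochondrial genome, had 1 and 4 UMIs.

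Stress gene lists gave different summed folds in the libraries. In the EYFP positive set the side of 1 depended on the total for the immediate early and the secretory pathway lists. Immediate early and heat shock genes summed to 2.03-fold (1.84 to 2.24) in the EYFP negative set, with 9 of 19 called higher and 1 lower, and to 0.622-fold (0.584 to 0.661) in the EYFP positive set, with 0 higher and 7 lower, or 1.097-fold with the reduced total. The EYFP negative count of 9 is to be read against the 30.1% of all genes called higher there. The EYFP positive count of 7 is to be read against the 39.4% called lower. The list's median log2 fold was 0.97 in the EYFP negative library. The 1.16 of all genes there is raised by the pseudocount, so it is no reference level. In the EYFP positive library the list's median was -0.80, beside -0.53 for all genes. The heat shock protein Hspa1b was 5.62-fold (4.19 to 7.40) in the EYFP negative set, from 53 UMIs in 16 of 99 barcodes, and 0.967-fold (0.714 to 1.28, or 1.71 with the reduced total) in the EYFP positive set. The chaperone Hsp90aa1 was 3.78-fold (2.89 to 4.87) and 1.03-fold, and the transcription factor Jun 2.20-fold (1.56 to 3.01) and 0.741-fold (0.650 to 0.841), the latter 1.31-fold with the reduced total. For genes of the endoplasmic reticulum and secretory pathway the folds were 1.31 (1.097 to 1.55), with 8 of 23 called higher and 2 lower, and 0.720 (0.666 to 0.778, or 1.27 with the reduced total), with 0 higher and 7 lower. The count of 8 in that list is likewise to be read against the 30.1%, and its EYFP positive count of 7 against the 39.4%. Within that list the chaperone Hspa5 was 2.60-fold (1.63 to 3.96) and 1.21-fold (1.00 to 1.45). Of 25 Hsp90b1 UMIs in the EYFP negative set, 20 lay in 1 barcode. Integrated stress response genes summed to 1.58-fold (1.41 to 1.75) in the EYFP positive set. That sum was 337 of 389 UMIs of Nupr1, a stress-induced chromatin regulator, with 1.72-fold (1.53 to 1.93) in 106 barcodes, and 1 of 10 tested members was called higher and 1 lower. In the EYFP negative set that list had 7 UMIs.

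**Figure D5:**
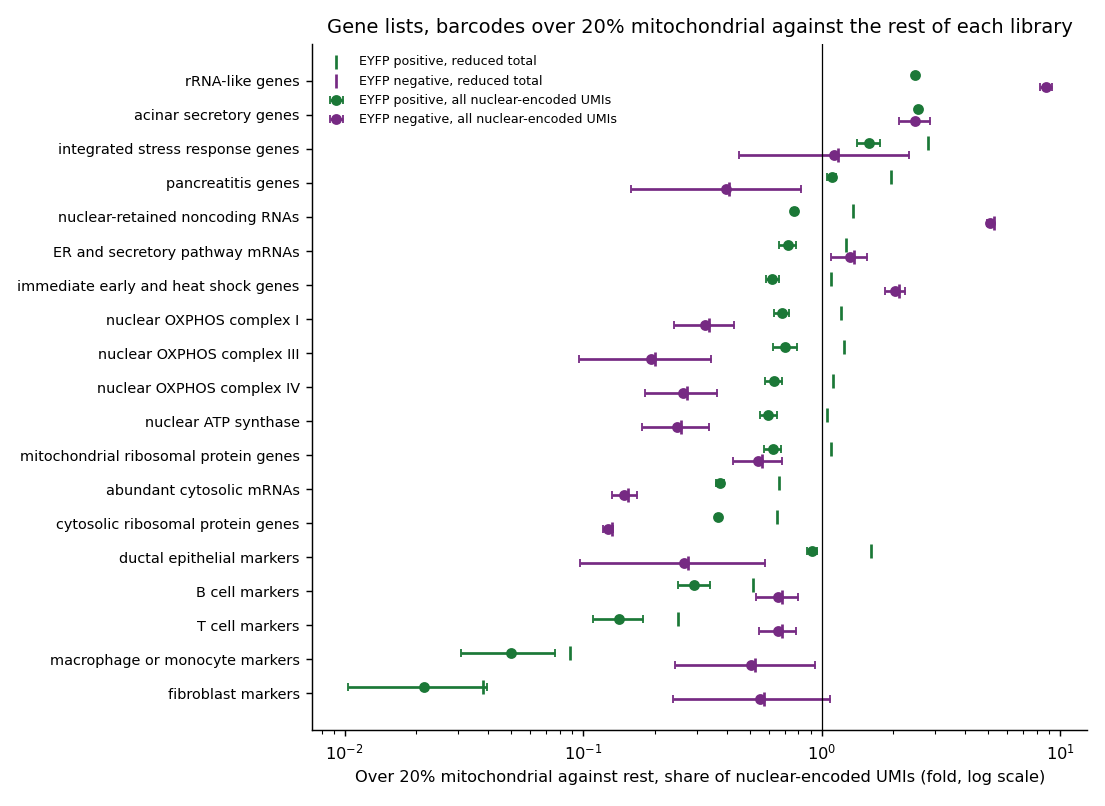
Fold of each gene list's share of nuclear-encoded UMIs, barcodes over 20% mitochondrial against the rest (horizontal axis, log scale), in the EYFP positive (green) and EYFP negative (purple) library. Points carry exact 95% intervals for counting error, and vertical ticks give the fold with the reduced total. Ribosomal protein genes lie at 0.368 and 0.127, and the nuclear-retained noncoding RNAs at 0.769 (1.36 with the reduced total) and 5.10.

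Cell markers were read barcode by barcode. A barcode was given a class when 1 of 18 marker lists had the most UMIs in it, with at least 2 UMIs in at least 2 of its genes. No class was reached by 241 of 336 EYFP positive barcodes (71.7%, 66.6 to 76.5), against 530 of 1338 in the rest (39.6%), and by 67 of 99 EYFP negative barcodes (67.7%, 57.5 to 76.7), against 12 of 553 in the rest (2.17%). Barcodes without a class had a median mitochondrial share of 78.6% and 87.6%. Depth moves with this: their median nuclear-encoded counts were 453 and 107, and with each barcode thinned to 200 nuclear-encoded UMIs the shares without a class were 84.1% and 74.0%, against 66.8% and 51.0% in the rest. Thinning left out 10 EYFP positive and 49 EYFP negative high-mitochondrial barcodes with fewer UMIs. Of those kept, 70.9% and 48% had no class before thinning. The differences from the rest were thus smaller at equal depth. In the rest, 47 of the 211 T cell marked EYFP positive barcodes held at least 1 ductal UMI, so single marker UMIs were not used to name a class.

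Among EYFP positive high-mitochondrial barcodes, duct markers were the most frequent. The ductal class held 52 (15.5%, 11.8 to 19.8), beside 18.6% of the rest, with a median of 12 marker UMIs. Thinned to 200 nuclear-encoded UMIs, 23.9% of the 326 barcodes of the set deep enough to keep and 21.8% of the rest held a ductal UMI. Unthinned, over all barcodes, these were 38.4% and 38.0%. The summed share of the 12 ductal markers was 0.910-fold that of the rest (0.870 to 0.952, 1.61 with the reduced total), with 0 called higher and 2 lower. The leading marker was Spp1, osteopontin, with 1008 UMIs in 78 barcodes and 0.850-fold (0.796 to 0.906, or 1.50 with the reduced total), then Clu, clusterin, with 529 in 64 and 1.05-fold (0.962 to 1.15), then the keratins Krt8 with 127 and 1.01-fold and Krt18 with 103 and 0.778-fold (1.37 with the reduced total). These sums rest on few barcodes. Of the Clu UMIs 254 lay in 1 barcode, and without the 3 barcodes with the most nuclear-encoded UMIs, which were 21.3 to 26.1% mitochondrial, Clu had 194 UMIs and was 0.468-fold (0.404 to 0.540), or 1.08-fold with the reduced total. The ductal list was then 0.539-fold (0.505 to 0.574), or 1.24-fold, on 1007 of its 2062 UMIs, Spp1 0.597-fold (1.38), Krt8 0.521-fold (1.201) and Krt18 0.503-fold (1.16), with the reduced-total fold in brackets. Acinar transcription factors marked 9 barcodes and were 2.47-fold higher (2.09 to 2.91) than in the rest, with 3 of 4 tested members called higher. Rbpjl, a DNA-binding factor of the acinar PTF1 complex, had 143 UMIs in 41 barcodes, 2.76-fold (2.29 to 3.32), and Ptf1a itself 12 UMIs in 9 barcodes, 4.38-fold (2.05 to 8.78). The B cell class held 12 barcodes, the endocrine class 7, the T cell class 6, and mural and endothelial classes 3 each.

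Fibroblast and macrophage RNA was scarce in the EYFP positive set. Fibroblast markers came to 10 UMIs against 5277 in the rest, 0.0215-fold (0.0103 to 0.0395). All 10 were called lower, and no barcode reached the fibroblast class, 0 of 336, which allows up to 0.893% by the floor of 3 counts, beside 66 of 1338 in the rest. Collagen Col1a1 had 0 UMIs against 324, at least 9.54-fold lower with the floor of 3 UMIs, Col3a1 had 1 against 916, and the proteoglycan Dcn 4 against 1981. Ogn, the osteoglycin named in the title of the series, had 0 against 328, at least 9.66-fold lower. Macrophage markers came to 21 UMIs against 4774, 0.0498-fold (0.0308 to 0.0762), with 11 of 11 lower, Lyz2 having 9 against 1856. T cell markers were 0.141-fold (0.110 to 0.178), with 14 of 14 lower, and B cell markers 0.293-fold (0.250 to 0.342), with 7 of 10 lower. The islet hormones Ppy and Pyy had 39 and 18 UMIs, in 30 and 16 of 336 barcodes, against 21601 and 7783 in 86 and 50 of 1338. They were thus found in no smaller a share of barcodes than in the rest, and the deficit lay in the summed UMIs only. Somatostatin (Sst) had 47 in 35 barcodes and was 4.67-fold higher (3.25 to 6.61). Tff2, a mucin-associated trefoil peptide, had 336 UMIs in 152 barcodes and was 2.87-fold higher (2.54 to 3.24). For Sncg and Foxj1 the excess lay in 1 barcode each, with 22 of 22 and 29 of 30 UMIs. Fewer cells of a type and less of its RNA per barcode cannot be told apart in these sums.

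Within a class, sums and barcodes of the EYFP positive library gave different pictures. All 3 barcodes with the most nuclear-encoded UMIs were of the ductal class and held 54.3% of its nuclear-encoded UMIs. In ductal barcodes, 52 against 249, the acinar secretory fold of the sums was 0.894 (0.872 to 0.916), but 1.76 (1.72 to 1.81) without those 3, and the median acinar share per barcode was 6.30% against 3.61%. Malat1 was 1.04-fold (1.00 to 1.08), but 0.641-fold (0.596 to 0.688) without them, or 0.947-fold with the reduced total. Its median share was 0.926% against 1.57%. Per nuclear-encoded UMI both directions thus turned on 3 barcodes near the 20% limit. The immediate early and heat shock genes went from 0.628 (0.561 to 0.701) to 0.412, or 0.609 with the reduced total. Ribosomal protein genes went from 0.731 (0.715 to 0.747) to 0.657, or 0.972. Nuclear complex IV genes went from 0.856 (0.773 to 0.946) to 0.749, or 1.11. The ribosomal-RNA-like list was 2.05-fold (2.01 to 2.09) and 3.59-fold without the 3, and Lars2 2.91-fold (2.72 to 3.12) and 5.37-fold, so both were higher either way. Among barcodes without a class, 241 against 530, the ribosomal-RNA-like fold of the sums was 1.00 (0.99 to 1.01), while the median share per barcode was 67.5% against 91.3%. The acinar fold was 1.17 (1.15 to 1.19), while the median acinar share was 15.66% against 2.81%, or 60 against 19 UMIs. Ribosomal protein genes also lay on opposite sides, at 0.767 for the sums and with a median share of 3.45% against 1.29%. For Lars2 both measures were higher, 2.52-fold (2.46 to 2.59) and a median of 6.02% against 2.38%. Gm26917, which adjoins Gm42418 on chromosome 17, was 4.63-fold (3.01 to 7.004) in ductal barcodes on 35 UMIs and 3.56-fold (2.72 to 4.68) in those without a class on 115. In the 12 B cell marked barcodes, a class chosen here after its size was seen, acinar RNA was 21.4% of nuclear-encoded UMIs, with a median of 270 UMIs per barcode, against 0.726% and 16 UMIs in the 117 B cell marked barcodes of the rest.

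EYFP negative high-mitochondrial barcodes carried lymphocyte markers. The T cell class held 15 (15.2%, 8.73 to 23.8), against 387 of 553 in the rest (69.98%), and the B cell class 11 (11.1%, 5.68 to 19.0), against 110 (19.9%). There were 2 barcodes each of the natural killer and macrophage classes and 1 each of the plasma cell and fibroblast classes. The summed T cell fold was 0.656 (0.549 to 0.777), with 0 of 14 called higher and 6 lower, and the B cell fold 0.655 (0.531 to 0.800), with 3 of 10 higher and 4 lower. Of all EYFP negative genes 30.1% were called higher and 48% lower. Both B cell counts and the T cell count of 6 lie near these shares. Thinned to 200 nuclear-encoded UMIs, 34.0% of the 50 barcodes of the set deep enough to keep and 56.1% of the rest held a T cell marker UMI. Unthinned, over all barcodes, these were 49.5% and 87.0%. Single markers diverged. The transcription factor Bcl11b had 20 UMIs and was 1.92-fold (1.17 to 2.97), the kinase Lck 17 UMIs and 1.53-fold (0.890 to 2.46), while the receptor constant gene Trbc2 had 15 UMIs and was 0.344-fold (0.193 to 0.569). Among B cell genes the transcription factor Ebf1 had 26 UMIs and 2.90-fold (1.89 to 4.27) and the scaffold Bank1 12 and 2.72-fold (1.40 to 4.79), while Ighm had 27 and 0.302-fold and Cd79a 2 and 0.131-fold. Ptprc, the pan-leukocyte phosphatase CD45, had 85 UMIs in 34 barcodes. Of 317 UMIs of the immunoglobulin constant gene Ighg2c, 314 lay in 1 barcode of 2285 UMIs, which also held 131 of Igkc and 16 of Jchain. Its 738-fold excess was 7.36-fold without that barcode.

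Within each lymphocyte class the EYFP negative folds lay on the same side of 1 as in the whole set for Malat1, Xist and ribosomal protein genes. These classes had 15 and 11 barcodes, under the 20 first asked for, and the limit was lowered to 10 after the sizes were seen. In T cell marked barcodes Malat1 was 5.68-fold (5.41 to 5.95) and ribosomal protein genes 0.112-fold of those in T cell marked barcodes of the rest, at median depths of 640 and 8142 nuclear-encoded UMIs. In B cell marked barcodes Malat1 was 5.02-fold (4.68 to 5.38) and ribosomal protein genes 0.0799-fold, at depths of 422 and 5324. CD45 RNA was 3.13-fold (2.22 to 4.28) and 2.59-fold (1.37 to 4.45), and Xist 2.54-fold (1.64 to 3.76) and 6.57-fold (4.80 to 8.80). Thinned to 200 nuclear-encoded UMIs, which left out 49 of the 99 barcodes and none of the rest, the median Malat1 count was 32.5 against 6 and the median ribosomal protein count 6 against 75. The unthinned medians were 22 against 240 and 10 against 2797, so the Malat1 share and the Malat1 count lie on opposite sides of the rest.

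Set directly against each other, the sets differed in many nuclear-encoded genes. Of 3310 genes with at least 10 UMIs in both sums together, 24% were at least 2-fold higher and 45% at least 2-fold lower per nuclear-encoded UMI in the EYFP positive set. The reduced total multiplies these folds by 2.18 and moves the median gene from -0.91 to 0.22 on the log2 scale. Higher ones were Lars2 at 121-fold (69.2 to 234), Spp1 at 62.2-fold with 1008 against 2 UMIs, and Clu with 529 against 3, Nupr1 with 337 against 1, Tff2 with 336 against 1 and the metallothionein Mt1 with 172 against 1. Ccnd1, Rbpjl, Krt8, Atp1b1, Tm4sf4 and Krt18 had 103 to 156 UMIs against 0. All 31 tested acinar secretory genes and all 9 tested ductal markers were called higher, and 34 complex I genes gave 15 called higher and 0 lower. Lower ones by the naming rule included Fyb, an adaptor of T cell receptor signalling, with 2 against 28 UMIs, Trbc1 with 4 against 28, Arhgap45 with 9 against 47, the class I histocompatibility gene H2-Q7 with 8 against 40, Ptprc with 23 against 85, the chromatin organiser Satb1 with 10 against 36, and the small GTPase Rhoh with 9 against 34. Ighg2c had 0 against 317. Of 450 genes with at least 5 UMIs expected in each of the 2 sums, 25.8% were higher and 29.3% lower by at least 2-fold with the interval beyond 1. The 132 lower genes spanned a median of 31230 bases and the 116 higher ones 7406, beside 9688 for all 450. Of the nuclear-retained noncoding RNAs 3 of 4 tested were called lower, at 0.184-fold (0.177 to 0.190) for the sum and 0.400-fold with the reduced total, and of T cell markers 9 of 9, at 0.0668-fold (0.0495 to 0.0897). Lars2, acinar, duct and T cell RNA differed in the same direction between the rests. Median counts in the EYFP positive and EYFP negative rest were 15 and 1 for Lars2 and 22 and 0 for acinar genes. The ductal class held 249 of 1338 and 3 of 553 barcodes of the rest, and the T cell class 211 and 387. These differences are thus not particular to the high-mitochondrial barcodes. The other genes named here were not compared between the rests.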

How the data were processed

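The authors deposited 2 count matrices of genes by barcodes, 1 per library. The values are whole UMI counts with differing totals, so they are read as raw. Per the labels' protocols the kit was Chromium Single Cell 5′ version 1.1, with 1 sequencing lane per library, but barcode sequences left the kit in doubt, so the transcript end read is not taken as known. Per the submitters' processing notes, Cell Ranger 2.1.0 and GRCh38 were used. Version 3.1.0 stands in the matrices, per the file headers, and gene identifiers are mouse Ensembl ones, which leaves the mapping build uncertain. Coordinates are those of GENCODE M21 (GRCm38). Counts were summed with Python 3.11.15, numpy 2.4.6 and scipy 1.17.1, and member barcodes were clustered with scanpy 1.11.5 as an alternative. The high-mitochondrial barcodes hold 762183 EYFP positive and 96492 EYFP negative UMIs. List medians use genes with at least 10 UMIs and a pseudocount of 0.5 UMI. The fold and its interval were tested on simulated independent counts, for genes with at least 5 UMIs expected. That test does not cover counts that are uneven over barcodes, or genes with fewer UMIs. Named genes were the 13 mitochondrial genes, the top 12 each way per comparison with at least 30 UMIs, ranked by the interval bound nearest 1 (without hemoglobin, ribosomal protein, predicted, immunoglobulin and T cell receptor variable and acinar secretory genes), and up to 4 genes with the most UMIs per list. Alternatives were other limits, totals and filters, thinning and clustering. The ones on single barcodes, on genes with at least 5 expected UMIs, on barcodes over 50% against the same rest, and on classes of at least 10 barcodes were added after the data were seen. Doublets were not removed. The members and lists were chosen with earlier results of these data known.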

Additional observations from a re-analysis of the deposited data

Results flagged for a closer look

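With 1 library per group no outlier among samples could be looked for. For 5 gene lists the share of nuclear-encoded UMIs in high-mitochondrial barcodes lay above that of the rest in 1 library and below it in the other, with both intervals clear of 1. None of these differences between libraries was tested, since each group is 1 library. Nuclear-retained noncoding RNAs had folds of 0.769 in the EYFP positive and 5.10 in the EYFP negative library. Genes of the endoplasmic reticulum and secretory pathway had 0.720 and 1.31, and immediate early and heat shock genes 0.622 and 2.03. For p53 and apoptosis genes the folds were 0.576 and 1.85, on 52 and 25 UMIs. Pancreatitis genes went the other way, with 1.103 and 0.395, the latter on 7 UMIs. With the reduced total the EYFP positive folds of the first 4 lists became 1.36, 1.27, 1.097 and 1.02, which are no longer below 1.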

How the results depend on the processing

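No paired analysis was possible because each group is 1 library, and no replicate could be left out. Each value below has the reported setting changed in 1 way. The share of high-mitochondrial barcodes in the EYFP positive library was 5.77% with at least 200 genes, and 31.7%, 16.7% and 13.4% with mitochondrial limits of 10%, 30% and 50%. In the EYFP negative library it was 5.64% with at least 200 genes and 9.53% with the 50% limit. The EYFP positive share without a class was 20.2% with at least 200 genes, 53.9%, 79.8% and 91.3% with limits of 10%, 30% and 50%, 84.1% after thinning and 77.1% by clusters. The EYFP negative share was 42.9% with at least 200 genes, 84.5% with the 50% limit and 85.9% by clusters. Complex IV transcripts made up 42.4% and 47.3% of mitochondrial UMIs (EYFP positive, then negative) with at least 200 genes, 41.5% and 48.5% as a mean over barcodes, and 41.5% and 48.7% without the 5 barcodes with the most UMIs.

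The EYFP positive fold of nuclear-retained noncoding RNAs was 1.17 with at least 200 genes, 0.555 as a mean over barcodes, 1.16, 0.517 and 0.161 with limits of 10%, 30% and 50%, and 0.162 for barcodes over 50% against the unchanged rest. It was 0.564 after thinning, 0.277 per all UMIs, 1.36 with the reduced total and 0.643 without the top 5 barcodes. The EYFP negative fold was 5.37, 3.46, 3.69, 4.64, 4.32 and 4.41 under the first 6 of these settings, then 4.81, 1.80 and 5.29. Between the sets it was 0.296, 0.121, 0.369, 0.135 and 0.0448 under the first 5, then 0.0884 after thinning, 0.400 with the reduced total and 0.150 without the top 5.

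Among single lists, 16 values called at 2-fold turned to the opposite side of 1, and 40 values under 2-fold also moved across 1, such as the EYFP positive endoplasmic reticulum list, 1.27 with the reduced total. The 16 are given here. Per all UMIs these were the EYFP positive acinar (0.915) and ribosomal-RNA-like (0.892) lists and the EYFP negative acinar (0.868) and immediate early (0.717) lists. The EYFP negative acinar fold was also 0.812 with at least 200 genes and 0.107 after thinning, its ductal fold 3.45 as a mean and 1.35 without the top 5, and its pancreatitis fold 3.59 as a mean, 1.23 over 50% against the unchanged rest, 1.24 with the 50% limit and 1.71 without the top 5. Between the sets, macrophage markers were 3.29 with the 10% limit and 1.07 after thinning, and nuclear complex IV genes 0.911 as a mean and 0.778 with the 50% limit. For these changes the cause was not tested. Leaving out the 3 deepest EYFP positive barcodes, chosen after the data were seen, turned the ductal-class acinar and Malat1 folds to 1.76 and 0.641. With the reduced total the Malat1 fold was then 0.947. Depth limits the EYFP negative set, in which 741 genes had at least 5 UMIs expected.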
